A study of Mus musculus with 4 samples.

Results

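Metallothioneins are small cysteine-rich proteins that bind zinc and copper. The genes described here are the 4 mouse metallothionein genes (Mt1, Mt2, Mt3 and Mt4), Mtf1, which encodes the metal-responsive transcription factor, and Slc30a1, which encodes the zinc exporter ZnT1 of the plasma membrane. These 6 of 32285 genes in the count matrices were selected by gene symbol. They were chosen with their molecule counts per gene, library and cell class in view, and with the spread of Mt1 and Mt2 over cells, so those values are given as a description with no test.

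The cells came from primary spermatogonial cultures. Thy1-positive cells, a testis fraction enriched in undifferentiated spermatogonia, were taken from 3 male mice per culture at postnatal day (PND) 6 and grown on a layer of STO cells, a mouse embryonic fibroblast line. The cultures received PBS (vehicle) or 1 μg/mL of extracellular vesicles (EVs) prepared from testes of PND 7 mice, for 3 days in either case. Each arm had 2 libraries. Of EV 2 only the 6794 barcodes were read, and its transcripts are not analysed here. With 1 EV library in use no test across samples was run, and nothing shows how far EV libraries vary. The titles number the libraries of an arm as biological replicates, and the study calls its single-cell samples independent. All intervals are 95% intervals and cover counting error only.

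Cells were put into classes by transcripts that exclude the 6 genes. A germ cell had at least 2 unique molecular identifiers (UMIs, which count captured RNA molecules) of Dazl, Tex15, Stk31 and Epcam, and more of these than of Col1a1, Col1a2, Sparc and Dcn. A feeder cell met the reverse rule. The libraries were not made up alike: germ cells numbered 4411 of 8263 kept cells (vehicle 1), 4783 of 8637 (vehicle 2) and 227 of 4779 (EV 1), while feeder cells numbered 2357, 2473 and 2508. Another 1495, 1381 and 2044 cells met neither rule. Cells of EV 1 were also shallower, with a median of 1322 UMIs per germ cell against 1936 and 2091, and 2447.5 per feeder cell against 3635 and 3896. Of 9 germ cell genes that defined no class, the summed level was 994, 1020 and 726 CPM (UMIs of a gene per 1e6 UMIs of the class) in the germ class of vehicle 1, vehicle 2 and EV 1, against 31.2, 26.9 and 10.2 CPM in the feeder class. Of 14 fibroblast genes, the sum was 2631, 2747 and 2415 CPM in feeder cells and 327, 313 and 446 CPM in germ cells. In unclassified cells the germ list was at 444, 435 and 44.7 CPM and the fibroblast list at 1302, 1354 and 2083 CPM. That class therefore held fewer germ and more fibroblast transcripts in EV 1. The summed Sertoli cell list reached 288, 304 and 283 CPM in feeder cells, nearly all of it Sox9, and Amh, a defining Sertoli gene, had 0, 2 and 0 UMIs there. In germ cells the Sertoli list was at 28.3, 26.1 and 49.2 CPM, from 16 UMIs in EV 1. A list of endothelial genes was at 14.0, 15.6 and 27.7 CPM in germ cells, from 9 UMIs in EV 1. A Leydig cell list was not higher there, at 6.56, 7.35 and 6.15 CPM. The macrophage list was at 8.47, 8.37 and 20.9 CPM in feeder cells and at 6.46, 7.08 and 18.5 CPM in germ cells. In feeder cells Cd68, a lysosomal protein, had 64, 67 and 123 UMIs, Csf1r had 5, 12 and 10, Ptprc had 9, 6 and 6, and Adgre1, a defining macrophage gene, had 3, 5 and 3. What these differences contribute to the results was not tested.

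Metallothionein transcription is known to follow free zinc and other metals. MTF1 binds zinc, enters the nucleus and binds metal response elements in front of Mt1, Mt2 and Slc30a1. Mt1 and Mt2 are expressed in most tissues, and they also respond to glucocorticoids and oxidative stress. Mt3 was first described in brain, and Mt4 in stratified squamous epithelium.

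In the GENCODE vM21 annotation of GRCm38, the build of the deposited counts, the metallothionein genes lie head to tail on the plus strand of chromosome 8, within 43.1 kb. Their order is Mt4 (chr8:94137197-94139031), Mt3 (chr8:94152607-94154146), Mt2 (chr8:94172664-94173568) and Mt1 (chr8:94179082-94180327). Mtf1 lies at chr4:124802104-124849800 and Slc30a1 at chr1:191906767-191913247, both on the plus strand. No run of 50 bases in any annotated transcript of the 6 genes occurred in a transcript of another gene, and the longest run shared by Mt1 and Mt2 was 20 bases. The noncoding gene Gm45774 overlaps Mt2 on the other strand and had 5, 5 and 15 UMIs in feeder cells of vehicle 1, vehicle 2 and EV 1. Whether reads were counted by strand is not given in the sources used here.

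The sequences before the annotated starts of the metallothionein genes are shown because metal response elements are known to lie in front of Mt1 and Mt2. They are the 250 bases before each RefSeq start on GRCm38.p6, from chr8:94178839-94179088 (Mt1), chr8:94172368-94172617 (Mt2), chr8:94136954-94137203 (Mt4) and chr8:94152357-94152606 (Mt3), all on the plus strand and 5′ to 3′. Capitals mark TGCACNC or TGCGCNC, the core letters of the metal response element, on either strand.
Mt1: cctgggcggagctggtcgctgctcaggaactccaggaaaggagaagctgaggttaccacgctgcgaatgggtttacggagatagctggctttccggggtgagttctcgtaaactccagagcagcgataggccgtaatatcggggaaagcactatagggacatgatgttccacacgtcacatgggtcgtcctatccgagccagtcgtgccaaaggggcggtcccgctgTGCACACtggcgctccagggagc
Mt2: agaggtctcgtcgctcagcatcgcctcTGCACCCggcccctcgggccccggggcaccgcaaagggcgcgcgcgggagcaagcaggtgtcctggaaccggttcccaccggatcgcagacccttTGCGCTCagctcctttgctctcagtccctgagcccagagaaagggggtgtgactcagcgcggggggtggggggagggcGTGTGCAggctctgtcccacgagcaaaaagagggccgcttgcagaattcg
Mt4: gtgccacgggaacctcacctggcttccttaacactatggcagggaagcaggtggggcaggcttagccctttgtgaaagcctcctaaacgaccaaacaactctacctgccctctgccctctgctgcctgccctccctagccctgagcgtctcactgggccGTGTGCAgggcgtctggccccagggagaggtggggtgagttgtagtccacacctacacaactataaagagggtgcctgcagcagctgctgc
Mt3: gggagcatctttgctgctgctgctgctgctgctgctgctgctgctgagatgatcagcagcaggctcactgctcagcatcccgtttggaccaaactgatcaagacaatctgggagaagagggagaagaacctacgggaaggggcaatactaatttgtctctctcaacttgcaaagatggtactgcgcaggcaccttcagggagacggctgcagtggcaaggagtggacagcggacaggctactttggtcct

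In the window of 300 bases that adds the 50 bases from the start onwards, Mt2 had 4 matches and Mt1 had 3, of which 1 and 2 lay after the start. Slc30a1 had 2, Mt3 and Mt4 had 1 each, and Mtf1 had 0. Of 32851 RefSeq promoters in this window, 25.7% held at least 1 match, 7.11% at least 2, 1.97% at least 3 and 0.517% at least 4. A match is a description of letters, and no binding was measured. The annotated starts also vary. Other GENCODE transcripts of Mt1 begin 122 and 152 bases after the RefSeq start. The 2 Mt1 matches after the RefSeq start lie in front of those, and the window does not reach the bases directly before them. GENCODE transcripts of Mt2 begin 46 and 242 bases after its RefSeq start and none begins at it, so the Mt2 match after that start lies in front of them. For the later Mt2 start, and for Mt3 transcripts that begin 139 bases after the RefSeq start, the window again falls short.

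Mt1 and Mt2, the widely expressed metallothioneins, were higher in EV 1 than in both vehicle libraries, in germ cells and in feeder cells. In feeder cells Mt1 stood at 2642 CPM in vehicle 1, 2534 CPM in vehicle 2 and 9027 CPM in EV 1. The vehicle libraries were close to each other, at 2588 ± 76.9 CPM (SD, n = 2), and EV 1 was 3.49-fold above their pooled level (3.45 to 3.53). Mt1 held 0.264% and 0.253% of all feeder UMIs in the vehicle libraries and 0.903% in EV 1, where it was the 5th most abundant gene. In germ cells Mt1 stood at 709, 593 and 2686 CPM in the same order. The vehicle germ cells were at 651 ± 81.7 CPM (SD, n = 2), and EV 1 was 4.16-fold above them (3.88 to 4.45), although its germ class held only 873 Mt1 UMIs. The germ values include whatever feeder RNA those barcodes carry, which is read below.

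Mt2 followed the same pattern at a lower level. Its feeder values were 402, 393 and 1501 CPM in vehicle 1, vehicle 2 and EV 1, a ratio of 3.78 (3.67 to 3.89). In germ cells the values were 205, 187 and 662 CPM, a ratio of 3.39 (2.94 to 3.88). For both genes and classes the EV 1 value stood far above the vehicle values, which differed from each other by at most 0.26 on the log2 scale.

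**Figure D1:**
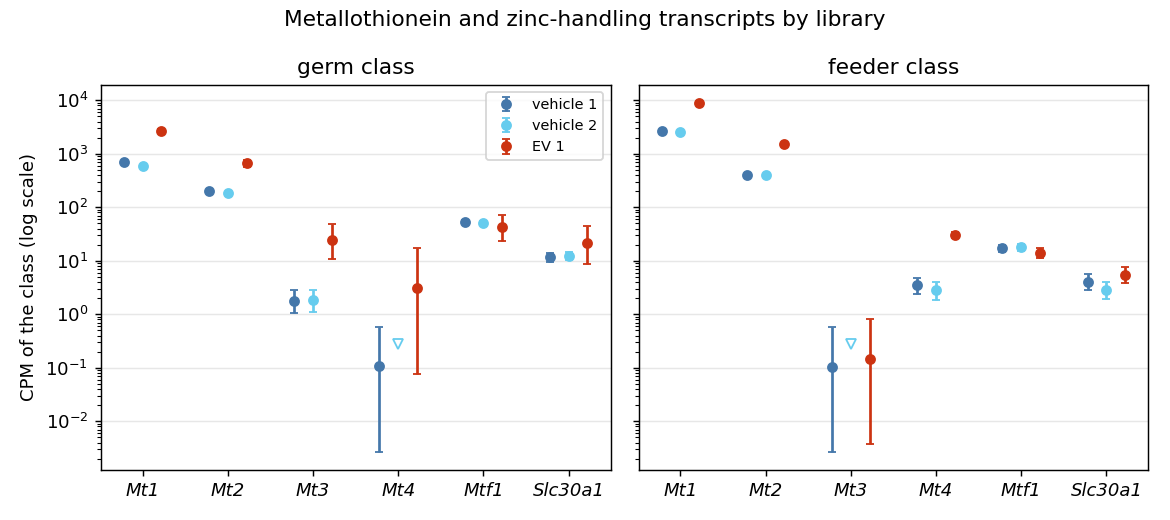
CPM (log axis) of the 6 genes in the germ class (left) and the feeder class (right), 1 point per library with its 95% Poisson interval. Open triangles mark libraries without a UMI, drawn at the CPM of 3 counts. Mt1 and Mt2 of EV 1 sit above both vehicle libraries in either class, and Mtf1 intervals of EV 1 overlap those of the vehicle libraries.

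The 2-fold difference is read against all genes. A log2 ratio (EV 1 over the mean of the vehicle libraries) was computed for every gene with at least 200 UMIs in a class, after 0.5 UMI was added to each sum. In feeder cells 1.41% of 9705 such genes were at least 2-fold higher in EV 1 and 2.82% at least 2-fold lower. The log2 ratios of Mt1 and Mt2 there were 1.80 and 1.92, ranks 21 and 16 from the highest. In germ cells 4.15% of 9674 genes were at least 2-fold higher (401 genes) and 4.49% at least 2-fold lower (434 genes). The tested genes had a median of 13 UMIs in germ cells of EV 1, against 208 in its feeder cells. How many of the germ differences are counting noise was not tested. The germ log2 ratios were 2.05 for Mt1 and 1.76 for Mt2, ranks 7 and 30. With edgeR's TMM scaling the median gene of the germ class moved by -0.15 and the counts became 252 higher and 610 lower, while Mt1 and Mt2 stood at 1.90 and 1.61. Since the members were chosen with these values known, the ranks are no evidence that they differ from other genes.

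**Figure D2:**
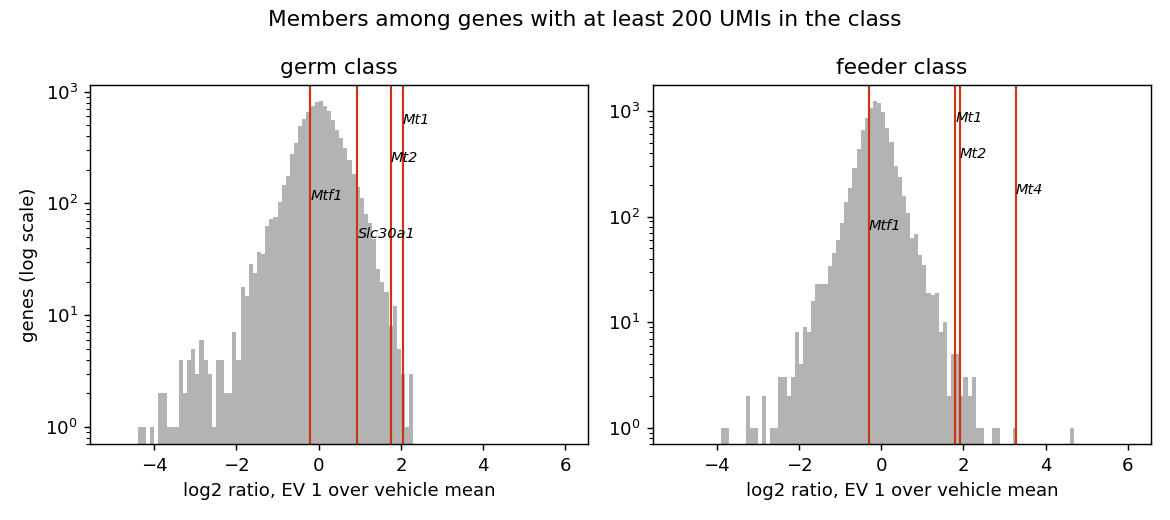
Number of genes (log axis) by log2 ratio (EV 1 over vehicle mean), for genes with at least 200 UMIs in the germ class (left) and the feeder class (right), with red lines at the members that reached this count. Mt1, Mt2 and, in feeder cells, Mt4 lie in the right tail, and Mtf1 lies within the bulk.

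The other metallothioneins were scarce. Feeder cells held 82.5% to 100% of the Mt4 UMIs of a library, and germ cells held 72.7% to 95.2% of the Mt3 UMIs. Mt4, the epithelial member, had 33 UMIs in feeder cells of vehicle 1, 30 in vehicle 2 and 208 in EV 1, or 3.45, 2.79 and 30.7 CPM. This was a ratio of 9.89 (7.43 to 13.3), the log2 ratio of 3.28 was the 2nd highest in feeder cells, and Mt4 passed 200 UMIs only through EV 1. Within feeder cells of 1500 to under 3000 UMIs the log2 ratio was lower, at 1.96, and it was 3.77 in shallower and 3.72 in deeper cells. In germ cells Mt4 had 1, 0 and 1 UMI, so no ratio is given. Feeder cells with a Mt4 UMI made up 0.933% (0.617 to 1.41), 1.05% (0.718 to 1.54) and 3.59% (2.93 to 4.39) of the class. There were 22, 26 and 90 such cells, with 1.5, 1.15 and 2.31 Mt4 UMIs each, and 1 cell of EV 1 alone held 26. In the Mt4-positive feeder cells Mt1 was at 4439, 4916 and 15906 CPM, against 2622, 2501 and 8714 CPM in the others of the same library. The positive cells were deeper as well, with a median of 4603, 5062 and 3312 UMIs against 3620, 3883 and 2423, and the part of depth was not tested.

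Mt3, the metallothionein first known from brain, was seen in germ cells. It had 17, 20 and 8 UMIs there, or 1.80, 1.82 and 24.6 CPM, and each UMI lay in a different cell. EV 1 was 13.6-fold above the pooled vehicle level, with a wide interval (5.47 to 29.7) that rests on 8 molecules. Germ cells with a Mt3 UMI were 0.385% (0.241 to 0.616), 0.418% (0.271 to 0.645) and 3.52% (1.80 to 6.80) of the class. Feeder cells, although deeper, held 1, 0 and 1 Mt3 UMI, and a count of 0 in the 2473 cells of vehicle 2 allows up to 0.121% of cells with a Mt3 UMI (3 cells), which sets no limit on cells that express the gene. Among the unclassified cells Mt3 had 5, 1 and 2 UMIs, a ratio of 0.518 (0.0512 to 2.90) that shows no direction. Their germ list also differed, at 444, 435 and 44.7 CPM, and its part in this ratio was not tested.

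Mtf1, the zinc sensor, gave no direction beyond counting error in the feeder and germ classes of EV 1. Its feeder values were 17.2, 17.8 and 14.1 CPM in vehicle 1, vehicle 2 and EV 1, a ratio of 0.810 with an interval of 0.639 to 1.02. In germ cells it stood at 52.5, 50.0 and 43.1 CPM, a ratio of 0.842 (0.459 to 1.42) that rests on 14 UMIs in EV 1. In unclassified cells the ratio was 0.662 (0.485 to 0.895), an interval below 1. The germ list of that class was at 444, 435 and 44.7 CPM and its fibroblast list at 1302, 1354 and 2083 CPM. What this shift contributes to the ratio was not tested. A 2-fold higher level lay outside the feeder interval. The feeder log2 ratio was -1.02 in cells of under 1500 UMIs, -0.27 in those of 1500 to under 3000 and -0.33 in deeper ones. In germ cells the direction depended on the cells read, with log2 ratios of -2.27, 0.67 and 1.09 in cells of under 1500, 1500 to under 3000 and 3000 or more UMIs, and of 0.24 when a germ cell needed 4 marker UMIs. The protein-coding gene 1110065P20Rik overlaps the 3′ end of Mtf1 on the other strand, with 684, 724 and 280 UMIs in feeder cells.

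Slc30a1, whose product moves zinc out of the cell, was low in all libraries. In feeder cells it had 39, 31 and 37 UMIs, or 4.08, 2.88 and 5.45 CPM, a ratio of 1.58 with an interval of 1.03 to 2.39. This class held 107 UMIs in all, under the 200 required. Germ cells gave 11.6, 12.3 and 21.5 CPM, a ratio of 1.80 (0.716 to 3.76) from 7 UMIs in EV 1. At this depth a 2-fold difference of Slc30a1 could be neither shown nor set aside in germ cells.

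The other zinc transporters were read beside the shares past 2-fold over all genes, 1.41% higher and 2.82% lower in feeder cells and 4.15% and 4.49% in germ cells. At those shares lists this short would hold few such genes or none. Of 9 further exporters of the Slc30a family, which carry zinc out of the cytosol, 5 reached 200 UMIs in feeder cells, 0 were 2-fold higher or lower, and their median log2 ratio was -0.08, against -0.13 for all genes tested. Of 14 importers of the Slc39a family, which carry zinc into the cytosol, 10 reached the count in feeder cells, 0 passed 2-fold in either direction, and the median was 0.11. In germ cells 6 exporters and 7 importers could be read, with median log2 ratios of 0.24 and -0.16, against 0.01 for all genes tested. Of these, 0 exporters and 1 importer passed 2-fold, so the counts do not set the lists apart from all genes. The importer was Slc39a9, at 21.6, 21.0 and 6.15 CPM with 2 UMIs in EV 1. Slc39a9 was named after its values were seen.

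Other genes listed as MTF1 targets moved unequally. All 5 (Gclc, Csrp1, Ndrg1, Pgf and Selenoh) reached 200 UMIs in feeder cells, 2 were at least 2-fold higher in EV 1 (1.41% of all genes tested were), 0 were 2-fold lower (2.82%), and the median log2 ratio was 0.27. The higher ones were Ndrg1, a stress-responsive gene also known to respond to hypoxia, and Pgf, a growth factor of the VEGF family. Ndrg1 stood at 70.7, 67.7 and 239 CPM (log2 ratio 1.79) and Pgf at 7.53, 7.34 and 15.8 CPM (1.08). Pgf had 72, 79 and 107 UMIs, so it reached 200 only with those of EV 1. Selenoh, a selenoprotein, had the lowest log2 ratio of the list, -0.95, and was named after its value was seen. In germ cells 4 of the 5 could be read with a median of 0.26, and Ndrg1 alone was past 2-fold, at 24.9, 22.5 and 64.6 CPM, where 4.15% of all genes tested were 2-fold higher and 4.49% lower.

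Because Mt1 and Mt2 are known to answer to signals other than zinc, lists for 2 of these were read as well. Of 7 redox targets, 6 could be read in feeder cells and 2 were at least 2-fold higher: Hmox1, heme oxygenase, at 111, 125 and 325 CPM, and Gclm, a subunit of the enzyme that starts glutathione synthesis, at 59.4, 59.0 and 121 CPM. Among all feeder genes tested 1.41% were 2-fold higher. The log2 ratios of the readable redox targets ran from -0.30 to 1.47 in feeder cells, with a median of 0.53. Of 6 glucocorticoid targets, all could be read in feeder cells, 0 passed 2-fold and the median was -0.03. In germ cells 0 of 5 readable redox targets and 1 of 5 readable glucocorticoid targets were 2-fold higher (4.15% of all genes tested were), the latter being Sgk1, a kinase, at 19.5, 17.0 and 43.1 CPM from 14 UMIs in EV 1. Hmox1, Gclm and Sgk1 were named after their values were seen.

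The classes differed from each other in the same way in every library. Mt1 in germ cells was at 0.268, 0.234 and 0.298 of its feeder level in vehicle 1, vehicle 2 and EV 1. Mt2 was at 0.509, 0.477 and 0.441 of it. The regulator and the exporter ran the other way. Mtf1 was 3.06-, 2.82- and 3.04-fold higher in germ cells than in feeder cells, and Slc30a1 was 2.86-, 4.25- and 3.95-fold higher. Droplet barcodes of germ cells can carry free feeder RNA, so the same fraction was read for 13 fibroblast genes. Their median was 11.3%, 9.74% and 17.6% of the feeder level in germ cells, against 26.8%, 23.4% and 29.8% for Mt1 and 50.9%, 47.7% and 44.1% for Mt2. In each library 10 of the 13 genes were below Mt1 and 11 were below Mt2. That median fraction of the feeder level amounts to 299.5, 247 and 1591 CPM of Mt1 and 45.6, 38.3 and 264.5 CPM of Mt2 in the 3 libraries. These are 42.3%, 41.6% and 59.2% of the germ level of Mt1 and 22.3%, 20.4% and 40.0% of that of Mt2. For both genes the part was largest in EV 1. How much of the germ cell signal, or of its ratio between EV 1 and the vehicle libraries, is feeder RNA was not tested.

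Within each library the number of Mt1 UMIs per Mt2 UMI differed between the classes. It was 3.46 (3.29 to 3.64), 3.17 (3.01 to 3.33) and 4.06 (3.49 to 4.74) in germ cells of vehicle 1, vehicle 2 and EV 1. In feeder cells it was 6.57 (6.35 to 6.80), 6.45 (6.24 to 6.66) and 6.01 (5.89 to 6.14). The intervals of the germ and feeder classes did not overlap in any of the 3 libraries. Unclassified cells gave 5.10, 4.52 and 5.98, between the classes in the vehicle libraries and level with feeder cells in EV 1. Their germ list was at 444, 435 and 44.7 CPM and their fibroblast list at 1302, 1354 and 2083 CPM. What this contributes to the ratio was not tested.

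**Figure D3:**
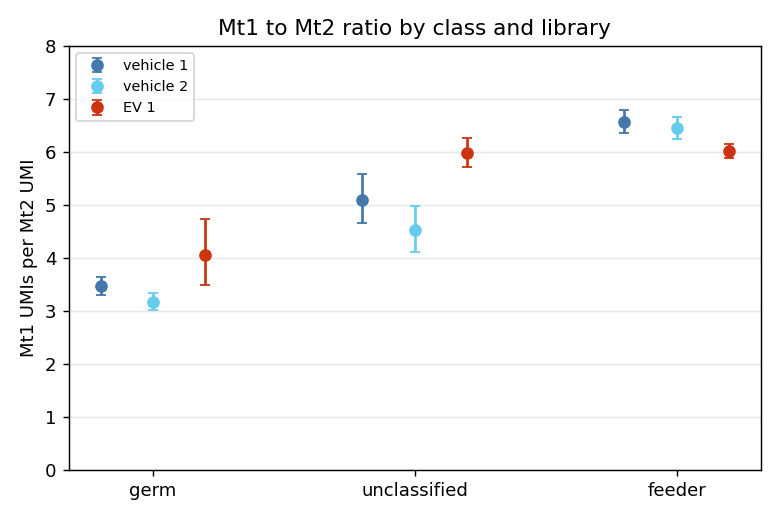
Mt1 UMIs per Mt2 UMI (linear axis from 0) in germ, unclassified and feeder cells, 1 point per library with its exact 95% interval. Germ cells lie between 3.17 and 4.06 and feeder cells between 6.01 and 6.57.

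More cells of EV 1 held a Mt1 or Mt2 UMI, in both classes. To compare cells of unlike depth, each cell was thinned at random to 1000 UMIs and those below that depth were dropped (146, 112 and 49 germ cells, 86, 56 and 184 feeder cells). Feeder cells with at least 1 Mt1 UMI made up 71.2% (69.4 to 73.1) of vehicle 1, 69.2% (67.3 to 71.0) of vehicle 2 and 92.0% (90.8 to 93.0) of EV 1. Germ cells with a Mt1 UMI made up 42.4% (40.9 to 43.9), 36.3% (34.9 to 37.7) and 87.1% (81.4 to 91.2). Without thinning the shares were 88.4%, 87.9% and 96.7% of feeder cells and 60.2%, 54.8% and 92.1% of germ cells. For Mt2 the thinned shares were 27.0%, 26.1% and 55.9% of feeder cells and 16.8%, 15.1% and 46.1% of germ cells, against 53.5%, 53.8% and 70.6%, and 28.4%, 27.3% and 53.7%, without thinning. Both classes may express Mt1 and Mt2, so neither gives a background share. The germ cell shares include whatever feeder RNA those barcodes carry, which was read above only as a fraction of the level.

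Feeder cells varied widely in Mt1. The median feeder cell held 1, 1 and 6 Mt1 UMIs per 1000 in vehicle 1, vehicle 2 and EV 1, and the 90th percentile was 7, 6 and 22. Cells with 10 or more Mt1 UMIs per 1000 were 5.42%, 4.55% and 33.6% of the class. The distributions overlapped, since 14.0% of vehicle 1 and 12.5% of vehicle 2 feeder cells reached the EV 1 median. The variance over the mean, which is near 1 for counting noise alone, was 5.23, 5.31 and 11.1. The 10% of feeder cells with most Mt1 held 42.4%, 43.2% and 36.0% of all Mt1 UMIs. This share falls as the mean of a sparse count rises, and the variance over the mean can rise with it. The means were 2.70, 2.58 and 8.98, so neither figure gives an order of the libraries.

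Germ cells held less Mt1 per cell. Their median Mt1 count per 1000 UMIs was 0, 0 and 2, the 90th percentile was 2, 2 and 5.3, and the variance over the mean was 2.48, 2.31 and 2.06. Cells with 10 or more Mt1 UMIs numbered 14 of 4265, 7 of 4671 and 2 of 178. The 10% of germ cells with most Mt1 held 49.1%, 53.0% and 29.5% of its UMIs, at means of 0.772, 0.630 and 2.70. Of the EV 1 germ cells, 12.9% had no Mt1 UMI at this depth, compared with 57.6% and 63.7% in the vehicle libraries.

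**Figure D4:**
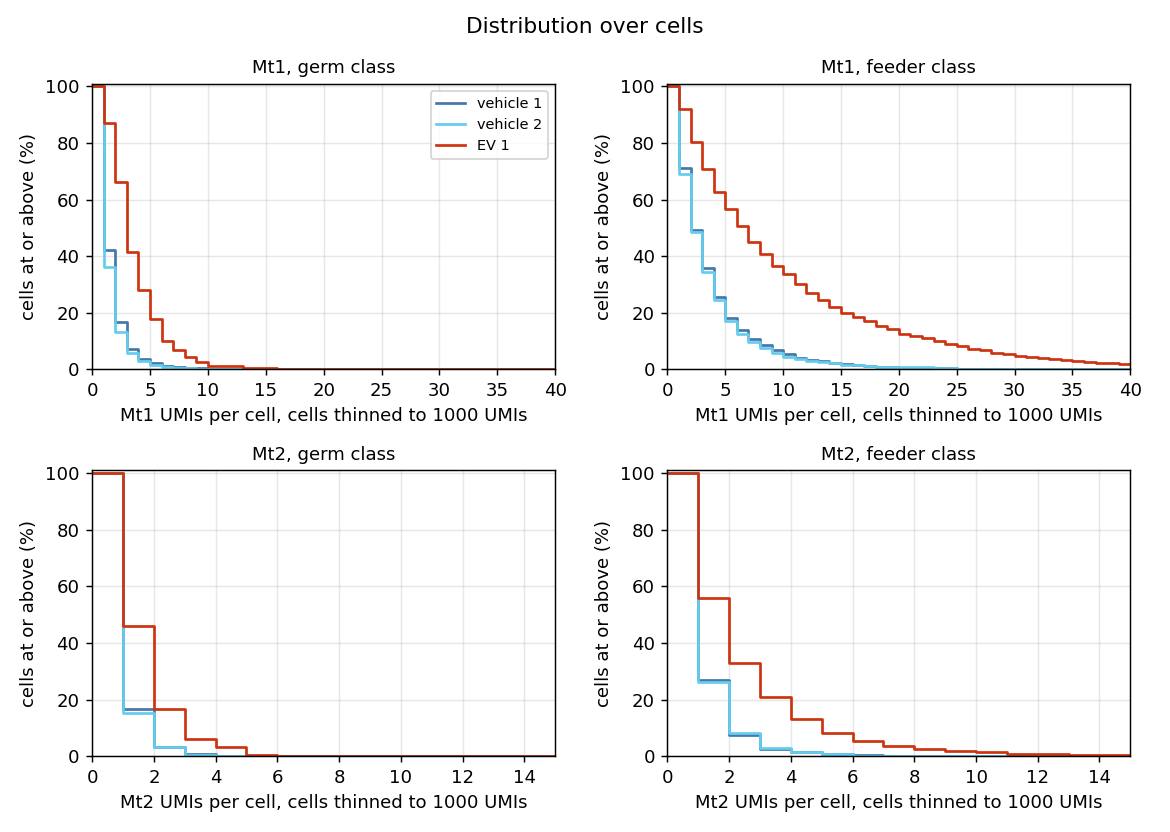
Share of cells (%) with at least a given number of Mt1 (top) or Mt2 (bottom) UMIs, after thinning each cell to 1000 UMIs, in the germ class (left) and the feeder class (right), 1 line per library. The vehicle lines lie close together, except that 42.4% (vehicle 1) and 36.3% (vehicle 2) of germ cells had at least 1 Mt1 UMI. The EV 1 line lies above the vehicle lines except in the germ tails. There it ends at 15 Mt1 and 5 Mt2 UMIs, and under 0.1% of vehicle cells lie beyond. In feeder cells it runs past 40 Mt1 UMIs.

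Cells rich in Mt1 tended to be rich in Mt2. Over thinned feeder cells the Pearson correlation of log counts was 0.34, 0.32 and 0.45 in 2271, 2417 and 2324 cells, and over germ cells it was 0.26, 0.26 and 0.41 in 4265, 4671 and 178 cells. These are descriptions of sparse counts in cells that share a library. Among the 25% of EV 1 feeder cells with most Mt1, 77.1% had a Mt2 UMI, compared with 32.2% among the 25% with least. In the vehicle libraries these shares were 46.2% against 13.9% and 42.5% against 13.4%.

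The genes whose pattern over feeder cells was most like that of Mt1, after Mt2, were Higd1a, Bsg, Fth1, Prdx5 and Mif. They had the highest Spearman correlation with Mt1 in the library where it was lowest, among 2145 genes with a mean of at least 0.2 UMI per feeder cell in every library. Besides Mt1, 146 of these genes had a correlation of at least 0.2 in every library. Counts were taken per 10000 UMIs of a cell, and these cells were not thinned. Over thinned feeder cells the Spearman correlation of Mt1 with Mt2 was 0.31, 0.28 and 0.43, and the part of depth was not tested. Higd1a, a mitochondrial protein of the hypoxia response, had 0.44, 0.47 and 0.42 in vehicle 1, vehicle 2 and EV 1, close to Mt2 itself at 0.44, 0.45 and 0.51. Fth1, the heavy chain of the iron store ferritin, had 0.39, 0.37 and 0.57. Bsg, the surface glycoprotein basigin, Prdx5, a peroxiredoxin, and Mif, a cytokine, had lowest values of 0.40, 0.37 and 0.36. Their levels did not move alike. The feeder log2 ratio was 0.92 for Higd1a, 0.19 for Bsg, 0.01 for Fth1, 0.47 for Prdx5 and 0.45 for Mif. With Pearson correlation 3 of the 5 stayed among the first 5.

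The genes next to the metallothionein genes had feeder intervals below a 2-fold higher level in EV 1. The nearest with at least 200 UMIs over the kept cells were Bbs2 and Ogfod1 before Mt4, and Nup93 and Herpud1 after Mt1. Bbs2, a component of the ciliary BBSome, ends 38.3 kb before Mt4 and stood at 7.64, 7.25 and 7.22 CPM in feeder cells. Nup93, a nuclear pore protein, begins 34.2 kb after Mt1 and stood at 23.4, 26.8 and 18.3 CPM, a ratio of 0.725 (0.591 to 0.884). Ogfod1, an oxygenase, and Herpud1, a protein of the endoplasmic reticulum stress response, had feeder ratios of 0.866 (0.683 to 1.09) and 0.767 (0.646 to 0.908). In germ cells the ratios of the 4 neighbours lay between 0.915 and 1.41, and each interval included 1. Those of Bbs2, Ogfod1 and Herpud1 there, on 4, 8 and 5 UMIs in EV 1, also included 2, so a 2-fold difference could be neither shown nor set aside.

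**Figure D5:**
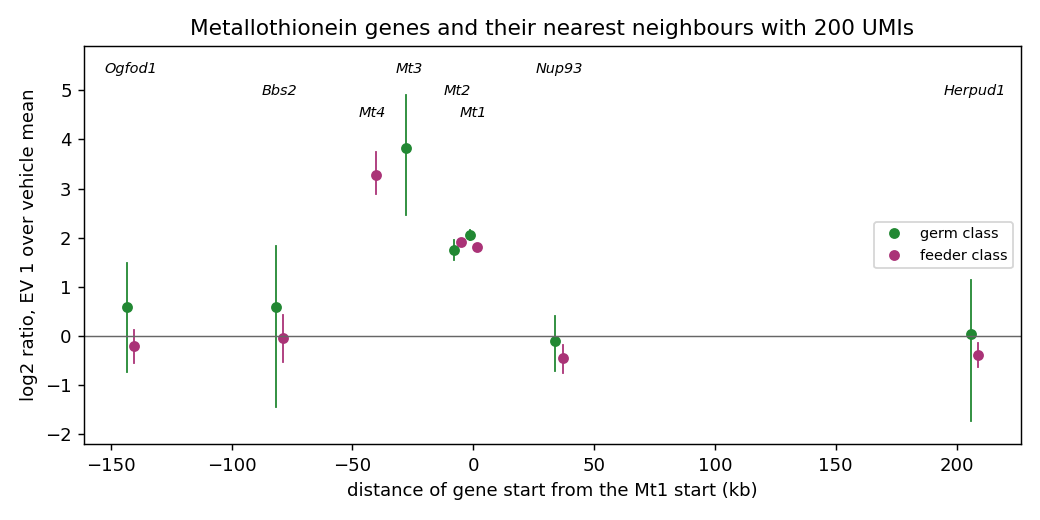
Log2 ratio (EV 1 over vehicle mean) with the 95% counting interval, by distance of the gene start from the Mt1 start (kb, on the plus strand), for the metallothionein genes and their neighbours. Green points are germ cells and purple points feeder cells, set slightly apart for display. The metallothionein genes lie at 1.76 or more, and the 4 neighbours lie between -0.45 and 0.60. Mt3 in feeder cells and Mt4 in germ cells are left out because 2 UMIs were counted in each.

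Depth differed between the libraries, so the comparison was repeated among cells of like depth. In feeder cells of under 1500, 1500 to under 3000 and 3000 or more UMIs, the log2 ratio of Mt1 was 1.88, 1.89 and 1.79, and that of Mt2 was 1.76, 2.08 and 1.91. In germ cells the values were 1.77, 1.77 and 2.75 for Mt1 and 1.85, 1.31 and 1.46 for Mt2, the last range with only 5 EV 1 cells. In unclassified cells Mt1 stood at 1284, 1039 and 4637 CPM in vehicle 1, vehicle 2 and EV 1, and Mt2 at 252, 230 and 775 CPM. EV 1 was thus higher for both genes in every class and depth range read, while the libraries' make-up of germ and feeder cells and the treatment cannot be told apart. The unclassified class differed in make-up too. Its germ list was at 444, 435 and 44.7 CPM and its fibroblast list at 1302, 1354 and 2083 CPM.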

How the data were processed

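Libraries were prepared with the 10x Genomics droplet protocol. Per the study's methods, reads were aligned to mm10 (GENCODE vM23, Ensembl 98) and counted with Cell Ranger 7.0.1, and whether intronic reads were counted is not given in the sources used here. What the authors deposited is a matrix of UMI counts, not normalized, by gene (32285) and barcode. Titles of the samples gave the groups. The counts used were those of vehicle 1, vehicle 2 and EV 1, with 23686047, 27444797 and 10793232 UMIs over 9291, 9738 and 5249 barcodes. EV 2 was not analysed beyond its barcodes, and any pair of libraries shared at most 22 barcodes.

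As in the study, a cell was kept if it had 400 to 4000 genes, bounds excluded, and a mitochondrial share below 10%. Scrublet scores (scanpy 1.11.5) replaced the study's doublet caller, and the highest 0.8% per 1000 cells were removed (633, 697 and 198). UMIs were summed per library and class. Intervals were exact Poisson for a CPM, exact conditional binomial for a ratio and Wilson for a share, at 95%. Python 3.11.15, edgeR 4.0.16 (TMM factors only) and R 4.3.3 were used, and the scripts were tested on simulated data. No p-value was computed, since EV 1 alone stood for the EV arm.

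The text names the 6 members, genes of the zinc exporter, zinc importer and MTF1 target lists with at least 200 UMIs in feeder cells and a log2 ratio of at least 1 in size there, the 5 genes most like Mt1, and the 2 nearest genes with 200 UMIs on either side of the cluster. Marker genes, overlapping genes and the contents of a list are named for what they are, and other genes outside this rule are marked as named after their values were seen. The members and lists were chosen with earlier results of these data known. Alternatives covered scaling, class rules, doublets, cell filters, cell weighting, pseudocounts, count minimums and each vehicle library in turn. Depth ranges, unclassified cells and a minimum of 1000 UMIs were added after seeing the data. Promoters were read from RefSeq (GRCm38.p6), which held all 6 members.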

Additional observations from a re-analysis of the deposited data

Results flagged for a closer look

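Barcodes that the filters on genes, mitochondrial share and doublets left out entered no comparison above, and they were looked at because they hold signal of the same genes. There were 1028 such barcodes in vehicle 1, 1101 in vehicle 2 and 470 in EV 1. Among them Mt1 stood at 5814.72 CPM in EV 1, against 1053 and 1132 CPM in the vehicle libraries. Mt2 stood at 947.45 CPM in EV 1, against 230 and 221 CPM. Mt4 stood at 27.0332 CPM in EV 1, from 21 UMIs, against 0.418 and 1.74 CPM from 1 and 6 UMIs. Mtf1 was lower in EV 1, at 36.3, 32.8 and 12.9 CPM in vehicle 1, vehicle 2 and EV 1 from 87, 113 and 10 UMIs, and Slc30a1 stood at 8.35, 6.10 and 5.15 CPM from 20, 21 and 4 UMIs. Mt3 had 1, 3 and 0 UMIs. These barcodes mix cell classes, so the values were not tested against those of the kept cells.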

How the results depend on the processing

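Of 259 alternative values, 191 stayed within the spread of the reported one or, for counts of genes, within 1.5 times the reported count. For Mt1, Mt2 and Mt4 the log2 ratio (EV 1 over vehicle mean) stayed positive under every alternative run. Without either vehicle library in turn it ranged from 1.92 to 2.18 (Mt1, germ), 1.69 to 1.82 (Mt2, germ), 1.77 to 1.83 (Mt1, feeder) and 1.90 to 1.93 (Mt2, feeder). In feeder cells Mt1 and Mt2 were at 1.87 and 1.98 with TMM factors, 1.89 and 2.01 with median-of-ratios factors, 1.91 and 2.01 when a class needed 4 marker UMIs, and Mt1 was at 1.75 as a mean over cells. Mt2 in germ cells was at 1.54 when a class needed 4 marker UMIs. In cells of under 1500 UMIs the values were 1.77 (Mt1, germ), 1.88 and 1.76 (Mt1 and Mt2, feeder), 3.77 (Mt4, feeder), and -2.27 and -1.02 (Mtf1, germ and feeder). In cells of 1500 to under 3000 UMIs they were 1.77 and 1.31 (Mt1 and Mt2, germ), 1.89, 2.08 and 1.96 (Mt1, Mt2 and Mt4, feeder) and 0.67 (Mtf1, germ). In cells of 3000 or more they were 2.75, 1.46, 1.09 and 2.23 (Mt1, Mt2, Mtf1 and Slc30a1, germ) and 3.72 (Mt4, feeder), so the sign of Mtf1 in germ cells changed with depth, on 14 UMIs in EV 1. In unclassified cells Mt1, Mt2 and Mt4 were at 2.00, 1.68 and 2.46, and Mt3 was reversed from 3.82 in germ cells to -0.84 on 5, 1 and 2 UMIs. The germ list of unclassified cells was at 444, 435 and 44.7 CPM in vehicle 1, vehicle 2 and EV 1, so this class differed in make-up. The causes of these shifts were not tested.

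Genes 2-fold higher and lower in germ cells numbered 401 and 434. They were 252 higher with TMM and 264 with median-of-ratios factors, 1531 and 927 at a minimum of 50 UMIs, 9983 and 927 at 1 UMI, 37 and 66 at 1000 UMIs, and 7 and 61 at 4-fold. In feeder cells 137 and 274 became 311 and 631 at 50 UMIs, 3211 and 3142 at 1 UMI, 38 and 66 at 1000 UMIs, and 14 and 29 at 4-fold. The mean vehicle log2 ratio of germ to feeder cells kept its sign: Mt1 went from -2.0 to -2.33 (TMM) and -2.42 (median of ratios), Mt2 from -1.02 to -1.36, -1.44 and -1.10 (class of 4 marker UMIs), Mtf1 from 1.55 to 1.22, 1.13 and 1.35 (mean over cells), and Slc30a1 from 1.79 to 1.37 (median of ratios). The difference in the share of cells with a UMI, EV 1 minus vehicle mean, stayed positive. For Mt1 in germ cells it was 47.7 percentage points, 34.5 without thinning and 26.8 at 2000 UMIs. For Mt2 in germ cells it was 30.1, 20.1 at 500 UMIs and 21.1 with 4 marker UMIs. For Mt1 in feeder cells it was 21.7, 8.61 without thinning, 12.5 at 2000 UMIs, 27.5 at 500 and 20.3 with doublets kept. For Mt2 in feeder cells it was 29.4, 17.0 without thinning, 24.5 at 500 UMIs and 32.7 with 4 marker UMIs. No paired analysis was possible because only EV 1 of the EV libraries has counts here. The EV 1 germ class held 325012 UMIs in 227 cells, which limits Mt3, Mtf1 and Slc30a1 there to 8, 14 and 7 UMIs.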
